A study of Mus musculus with 23 samples.

Results

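The 6 Cyp4a genes measured here, Cyp4a10, Cyp4a14, Cyp4a31, Cyp4a32, Cyp4a12a and Cyp4a12b, encode cytochrome P450 enzymes that hydroxylate fatty acids at the omega carbon. They were followed by gene symbol in control liver, pre-metastatic liver and primary tumor, and were 6 of the 48895 gene symbols of the table. The family was chosen by the fall of its leading members in pre-metastatic against control liver in these same libraries. Their values in that comparison are therefore given as a description, without p-values, and the number of members called in it is printed without being read as a result. All 6 are protein-coding genes, and they lie within 323 kb of chromosome 4 (mouse build mm10, GRCm38).

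The study compared livers before metastasis with normal livers in an orthotopic colorectal cancer model. Male BALB/c mice aged 4 to 6 weeks received CT26 cells, a mouse colon carcinoma line, in the wall of the cecum, or serum-free medium in a sham operation, and tissue was taken 3 weeks later. Poly(A) RNA-seq covered 5 control livers, from the sham-operated mice C1, C4, C5, C6 and C7. From the 9 tumor-bearing mice M1, M2, M4, M5, M6, M7, M8, M10 and M12 it covered both the pre-metastatic liver and the tumor in the cecum. The labels name no genetic alteration of the mice, and all tumors grew from a single cultured line. Total counts were 44587556 to 79773163 per library. RPKM is the count scaled for gene length and library total. The 6 hepatocyte markers, albumin among them, summed to 46536 to 56169 RPKM in control liver and 36901 to 77855 RPKM in pre-metastatic liver. Single markers moved in opposite directions under this sum. Cps1 was 998 to 1928 RPKM in control and 169 to 683 RPKM in pre-metastatic liver. Trf was 4775 to 5343 and 7925 to 13779 RPKM, and Serpina1c 1147 to 1506 and 1585 to 2280 RPKM. Albumin, Ttr and Apoa1 overlapped between the groups, with Apoa1 medians of 15323 and 9506 RPKM.

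Omega-hydroxylation is the opening step of a side route of fatty acid breakdown. The hydroxyl group placed by a Cyp4a enzyme is oxidized to a second acid group, and the dicarboxylic acid is shortened in peroxisomes. In mouse liver, Cyp4a10 and Cyp4a14 are classic targets of PPARα, the nuclear receptor for fatty acids that drives fat oxidation in fasting. Cyp4a12a is the male form, which depends on androgen and on the pulsed growth hormone of males, and it also makes the eicosanoid 20-HETE from arachidonic acid. Cyp4a12b is its close copy, and Cyp4a31 and Cyp4a32 are close copies of Cyp4a10.

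The closeness of the copies sets how far their counts can be told apart, so their coding sequences (GENCODE vM21, GRCm38) were compared. The coding sequence had 12 exons in every member. Cyp4a10 was 97.2% identical to Cyp4a32 (43 different bases of 1527) and 96.6% identical to Cyp4a31 (52 different bases). Cyp4a12a and Cyp4a12b were 98.5% identical, with 23 different bases of 1524 and an identical run of 342 bases. Cyp4a14 stood apart, at 77.4% identity with Cyp4a10. The stretch that codes for the heme-binding signature of P450 enzymes shows these relations. It is printed here 5′ to 3′ on the coding strand, with bases that differ from Cyp4a10 in capitals, across the junction of exons 11 and 12.
Cyp4a10: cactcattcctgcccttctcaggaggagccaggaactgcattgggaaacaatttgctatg
Cyp4a31: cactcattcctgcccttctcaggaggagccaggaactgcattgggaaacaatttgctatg
Cyp4a32: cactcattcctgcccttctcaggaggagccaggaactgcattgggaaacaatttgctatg
Cyp4a12a: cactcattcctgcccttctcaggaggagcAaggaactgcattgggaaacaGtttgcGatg
Cyp4a12b: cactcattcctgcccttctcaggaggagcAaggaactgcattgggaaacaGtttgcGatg
Cyp4a14: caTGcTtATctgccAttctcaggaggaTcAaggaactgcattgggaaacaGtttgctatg
Over these 60 bases, Cyp4a10, Cyp4a31 and Cyp4a32 were the same sequence, and Cyp4a12a and Cyp4a12b were the same sequence with 3 differences from Cyp4a10. Cyp4a14 had 9 differences. In Cyp4a10 the stretch lies at chr4:115529487-115529518 and chr4:115532531-115532558 on the plus strand. A read inside it cannot be given to 1 of the 3 or 1 of the pair.

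Other stretches do separate the copies. The 60 coding bases within an exon that differed most among Cyp4a10, Cyp4a31 and Cyp4a32 lie in exon 2, at chr4:115519654-115519713 (plus strand) in Cyp4a10, with the variable bases in capitals.
Cyp4a10: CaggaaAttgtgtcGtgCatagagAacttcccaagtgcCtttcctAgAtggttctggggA
Cyp4a31: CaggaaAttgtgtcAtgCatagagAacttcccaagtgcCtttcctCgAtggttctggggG
Cyp4a32: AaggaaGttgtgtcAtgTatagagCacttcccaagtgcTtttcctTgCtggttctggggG
For the Cyp4a12 pair the most different 60 bases lie in exon 6, at chr4:115326628-115326687 (plus strand) in Cyp4a12a, and hold 4 differences.
Cyp4a12a: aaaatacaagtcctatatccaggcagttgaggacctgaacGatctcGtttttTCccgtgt
Cyp4a12b: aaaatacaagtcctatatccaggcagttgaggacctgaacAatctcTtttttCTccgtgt
Of all windows of 100 bases in the main transcript, 12.7% in Cyp4a10, 8.22% in Cyp4a31, 20.1% in Cyp4a32, 35.8% in Cyp4a12a and 36.2% in Cyp4a12b also occur in a transcript of another gene, against 0 in Cyp4a14. The read length and the treatment of reads with several matches are not given in the sources used here. The values of all members but Cyp4a14 are therefore uncertain as values of single genes, the low Cyp4a10 values of pre-metastatic liver included.

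Cyp4a10, which is induced by PPARα agonists and fasting, was among the most abundant transcripts of control liver and was low in pre-metastatic liver. Its RPKM was 643 in C1, 857 in C4, 286 in C5, 862 in C6 and 899.8 in C7, which placed it 69th to 265th from the top among all genes. In pre-metastatic liver it was 2.49 in M1, 3.11 in M2, 1.67 in M4, 9.75 in M5, 1.25 in M6, 10.9 in M7, 1.21 in M8, 11.2 in M10 and 3.96 in M12. The lowest control liver stood 25.5-fold above the highest pre-metastatic liver, so the groups did not overlap. The group means were 709.7 ± 257 RPKM (SD, n = 5) and 5.07 ± 4.29 RPKM (SD, n = 9), and the edgeR log2 fold change was -7.06 (SE 0.60). In bulk liver, fewer cells that express a gene and less RNA per cell cannot be told apart.

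Cyp4a14, the other strongly PPARα-dependent member and the only one on the minus strand, showed the lowest log2 fold change of all 16987 genes tested in the livers. Its RPKM was 407 in C1, 718 in C4, 356 in C5, 638 in C6 and 1109.7 in C7. In pre-metastatic liver it was 1.76 in M1, 1.14 in M2, 0.928 in M4, 5.62 in M5, 0.713 in M6, 15.2 in M7, 0.296 in M8, 4.99 in M10 and 1.18 in M12. The control livers stayed within 3.12-fold of each other, while the pre-metastatic livers spread over 51.4-fold, with M7 highest and M8 lowest. The means were 646 ± 301 and 3.54 ± 4.78 RPKM, a log2 fold change of -7.40 (SE 0.83), and Cyp4a10 followed at place 2 from the lowest.

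Cyp4a31 and Cyp4a32, the close copies of Cyp4a10, were also lower, by smaller factors. Cyp4a31 was 3.86, 5.14, 2.15, 4.38 and 5.07 RPKM in C1, C4, C5, C6 and C7. In pre-metastatic liver it was 0.266 in M1, 0.257 in M2, 0.357 in M4, 0.761 in M5, 0.196 in M6, 0.980 in M7, 0.281 in M8, 0.805 in M10 and 0.497 in M12. Every pre-metastatic liver was below every control liver, with a log2 fold change of -2.98 (SE 0.35). The ratio of Cyp4a10 to Cyp4a31 was 168 ± 23.2 in control liver and 9.19 ± 3.57 in pre-metastatic liver. The part of reads from Cyp4a10 in the Cyp4a31 values was not tested.

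Cyp4a32 was 48.2, 50.1, 35.1, 41.1 and 37.1 RPKM in C1, C4, C5, C6 and C7. It was 9.20 in M1, 12.6 in M2, 11.9 in M4, 24.8 in M5, 5.06 in M6, 15.8 in M7, 7.50 in M8, 25.2 in M10 and 9.34 in M12. The gap between the groups was narrow, since the lowest control liver (C5) was 1.39-fold above the highest pre-metastatic liver (M10). The log2 fold change was -1.61 (SE 0.28). The ratio of Cyp4a10 to Cyp4a32 was 16.8 ± 6.31 in control liver and 0.336 ± 0.173 in pre-metastatic liver, so the levels of these near-identical genes did not keep a fixed proportion. When Cyp4a10, Cyp4a31 and Cyp4a32 were summed as 1 gene before the fit, the log2 fold change was -5.25.

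Cyp4a12a, the male form, and its close copy Cyp4a12b did not fall with the other members. Cyp4a12a was 33.0, 39.2, 32.9, 79.9 and 58.5 RPKM in C1, C4, C5, C6 and C7. In pre-metastatic liver it was 35.3 in M1, 117 in M2, 128 in M4, 152 in M5, 1.48 in M6, 95.0 in M7, 62.2 in M8, 116 in M10 and 31.4 in M12. The groups overlapped: 5 pre-metastatic livers were above every control liver and 2 (M6 and M12) below every control liver. The log2 fold change was 0.79 (SE 0.61), from means of 48.7 ± 20.4 and 82.1 ± 51.5 RPKM.

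Cyp4a12b was 1.31, 1.56, 1.31, 3.31 and 1.47 RPKM in C1, C4, C5, C6 and C7. It was 0.898 in M1, 2.65 in M2, 2.82 in M4, 5.63 in M5, 0.0297 in M6, 2.29 in M7, 1.85 in M8, 4.77 in M10 and 0.818 in M12. The same liver, M6, was lowest for both genes, with 202 counts of Cyp4a12a and 4 of Cyp4a12b. The log2 fold change of Cyp4a12b was 0.45 (SE 0.61), and Cyp4a12a was 27.9 ± 6.73 times as abundant as Cyp4a12b in control liver and 38.2 ± 8.48 times in pre-metastatic liver.

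**Figure D1:**
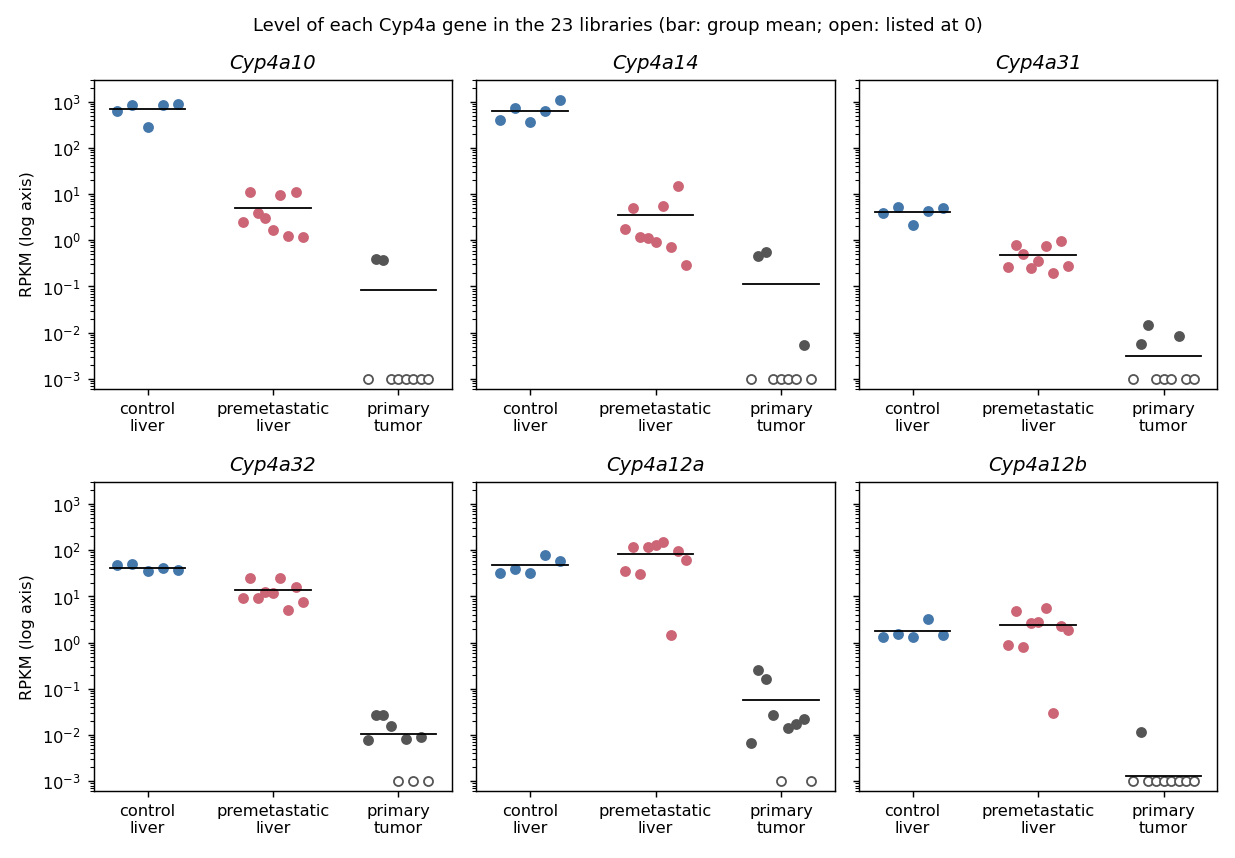
RPKM of each Cyp4a gene in each of the 23 libraries (log axis), with 1 point per library and a bar at the group mean. Open circles at the lower edge are libraries listed at 0. Cyp4a10, Cyp4a14, Cyp4a31 and Cyp4a32 did not overlap between control and pre-metastatic liver, while Cyp4a12a and Cyp4a12b did, and M6 lies far below the other livers for both.

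All 6 members passed the count filter, 4 were called lower and 2 were not called, with a median log2 fold change of -2.29. Of all genes tested, 31.0% were called in either direction at an adjusted p under 0.05 (13.3% lower and 17.7% higher), and 6.09% did not overlap between the groups with the lower values in pre-metastatic liver. The median log2 fold change over all genes was 0.01. Since this contrast chose the family, nothing is read from these counts.

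With the fall of some members and not of others, the make-up of the family differed between the groups. In control liver Cyp4a10 took 48.7% ± 7.04 of the summed Cyp4a RPKM, Cyp4a14 44.1% ± 7.06, and Cyp4a12a 3.51% ± 1.17 (SD, n = 5). In pre-metastatic liver Cyp4a12a took 69.8% ± 21.4, Cyp4a32 18.1% ± 15.5, Cyp4a10 5.82% ± 4.14 and Cyp4a14 3.65% ± 3.57 (SD, n = 9). M6 was the exception, with Cyp4a32 at 58.0% and Cyp4a12a at 17.0%. The sum itself was 713 to 2112 RPKM in control liver and 8.74 (M6) to 199 (M5) RPKM in pre-metastatic liver.

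**Figure D2:**
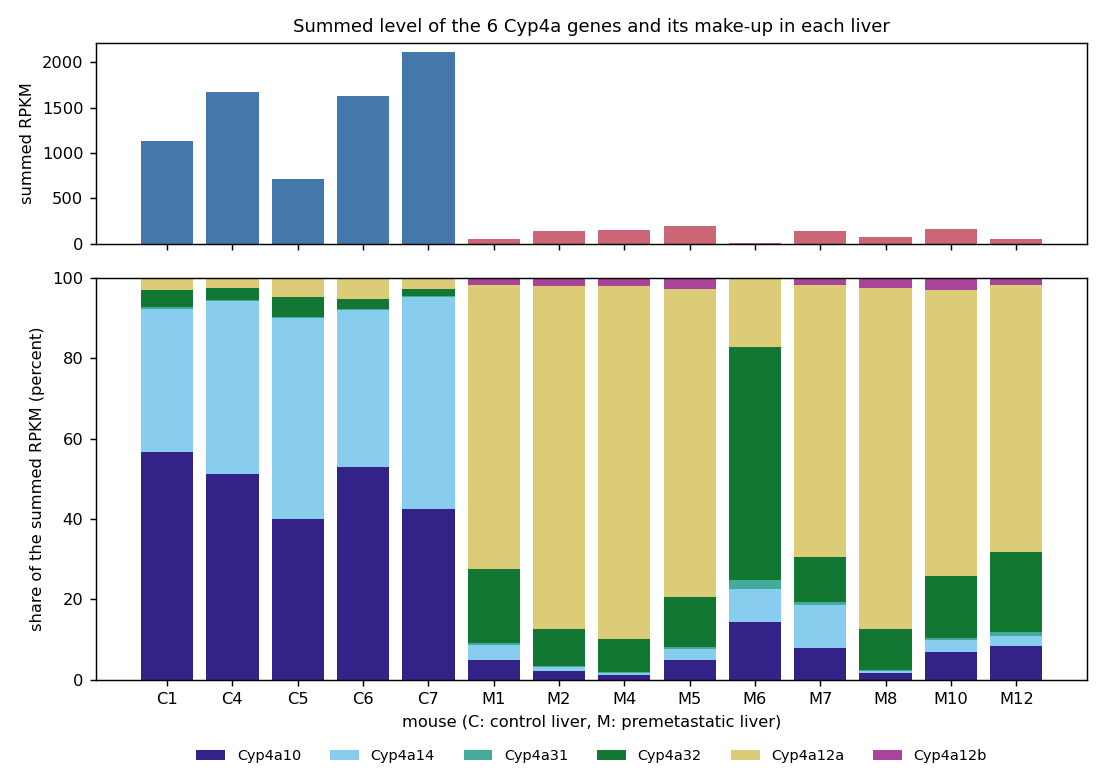
Summed RPKM of the 6 Cyp4a genes in each liver (upper bars, from 0) and the percent of that sum taken by each gene (lower stacked bars). Cyp4a10 and Cyp4a14 filled most of every control liver, and Cyp4a12a was the largest part in every pre-metastatic liver but M6, where Cyp4a32 was.

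Livers also differed in the state of the circadian clock, which many liver genes follow. An index of 6 clock genes (Dbp, Per3 and Ciart against Arntl, Npas2 and Clock) split the 14 livers into an early phase (4 control and 5 pre-metastatic livers) and a late phase (C7 and M1, M2, M10 and M12). Cyp4a10 was 4.96 ± 4.93 RPKM in the early and 5.20 ± 4.07 RPKM in the late pre-metastatic livers, and Cyp4a14 was 4.55 ± 6.34 and 2.27 ± 1.84 RPKM. In the early livers alone, the log2 fold change was -7.02 for Cyp4a10, -6.77 for Cyp4a14, -2.85 for Cyp4a31 and -1.73 for Cyp4a32. Cyp4a12a was at 0.94 and Cyp4a12b at 0.42 on the same scale. No member changed direction without the late livers, which is given as a description only.

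Some markers of other cells also moved between the liver groups. The 5 Kupffer cell markers summed to 54.7 to 112 RPKM in control and 111 to 334 RPKM in pre-metastatic liver, and the 3 markers of red cell precursors to 179 to 401 and 474 to 1025 RPKM. The 5 neutrophil markers summed to 6.11 to 17.7 and 6.67 to 117 RPKM, nearly all of it S100a8 and S100a9. Ly6g was at most 0.820 RPKM and Mmp8 at most 0.641 RPKM in any liver. The 5 intestinal epithelium markers went the other way, at 55.1 to 316 and 14.99 to 94.2 RPKM, nearly all of it Fabp2, with Cdx1 and Muc2 at most 0.0392 RPKM in any liver. The 3 pancreas markers had medians of 7.31 and 17.8 RPKM, nearly all of it Cela1, with Prss2 and Pnlip at 0 in every control liver. Albumin, the defining hepatocyte marker, was 21749 to 30271 RPKM in control and 15823 to 46034 RPKM in pre-metastatic liver. Their part in the Cyp4a values was not tested. Relative to 1000 RPKM of albumin, Cyp4a10 was 11.98 to 37.0 in control liver and 0.0272 to 0.616 in pre-metastatic liver. The groups did not overlap on that scale either. The scale rests on albumin alone, and the other hepatocyte markers did not move together.

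The other targets of PPARα were lower where they were called. Of 35 PPARα targets outside the family, all tested, 17 were lower, 0 were higher and 18 were not called by edgeR (adjusted p under 0.05 over all genes), with a median log2 fold change of -0.64. By DESeq2 and the other alternatives the number lower was 14 to 23, and 1 target was called higher without C7 or without M8. The list was drawn up with earlier results of these libraries known, and it is not independent evidence of its direction. At an unadjusted p under 0.05, edgeR gave 21 lower and 1 higher, and DESeq2 gave 20 lower and 0 higher after adjustment. Beside this list and those below, 13.3% of all genes tested were called lower and 17.7% higher by edgeR.

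Acot1, a thioesterase that releases fatty acids from coenzyme A, fell from 35.8 ± 15.9 to 2.82 ± 2.32 RPKM, a log2 fold change of -3.62 (SE 0.43, edgeR adjusted p = 5.2e-05). Cidec, a lipid droplet protein, fell by 3.48 on the log2 scale (SE 0.43, edgeR adjusted p = 6.6e-05). Ehhadh, the peroxisomal bifunctional enzyme that acts on dicarboxylic acids, fell from 185 ± 81.2 to 37.1 ± 14.8 RPKM (log2 fold change -2.24, SE 0.27, edgeR adjusted p = 6.6e-05). Acot2, the mitochondrial relative of Acot1, fell by 1.85 on the log2 scale (SE 0.35, edgeR adjusted p = 0.0013). The groups did not overlap for any of these 4 genes, beside 6.09% of all genes without overlap and lower in pre-metastatic liver. The 4 falls were smaller than those of Cyp4a10 and Cyp4a14. This contrast chose the family by its leading members, so nothing is read from that order.

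Not every target was called. Cpt1a, the gatekeeper of mitochondrial fatty acid import, was 138 ± 28.9 and 87.0 ± 30.3 RPKM (log2 fold change -0.58, edgeR adjusted p = 0.073), and it passed in the early livers alone (-0.97, edgeR adjusted p = 0.0057) and with the clock phase as a covariate (-0.81, edgeR adjusted p = 0.0039). Pdk4, a kinase that restrains glucose oxidation in fasting, was 1.56 ± 1.55 and 0.709 ± 0.516 RPKM (edgeR adjusted p = 0.13).

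**Figure D3:**
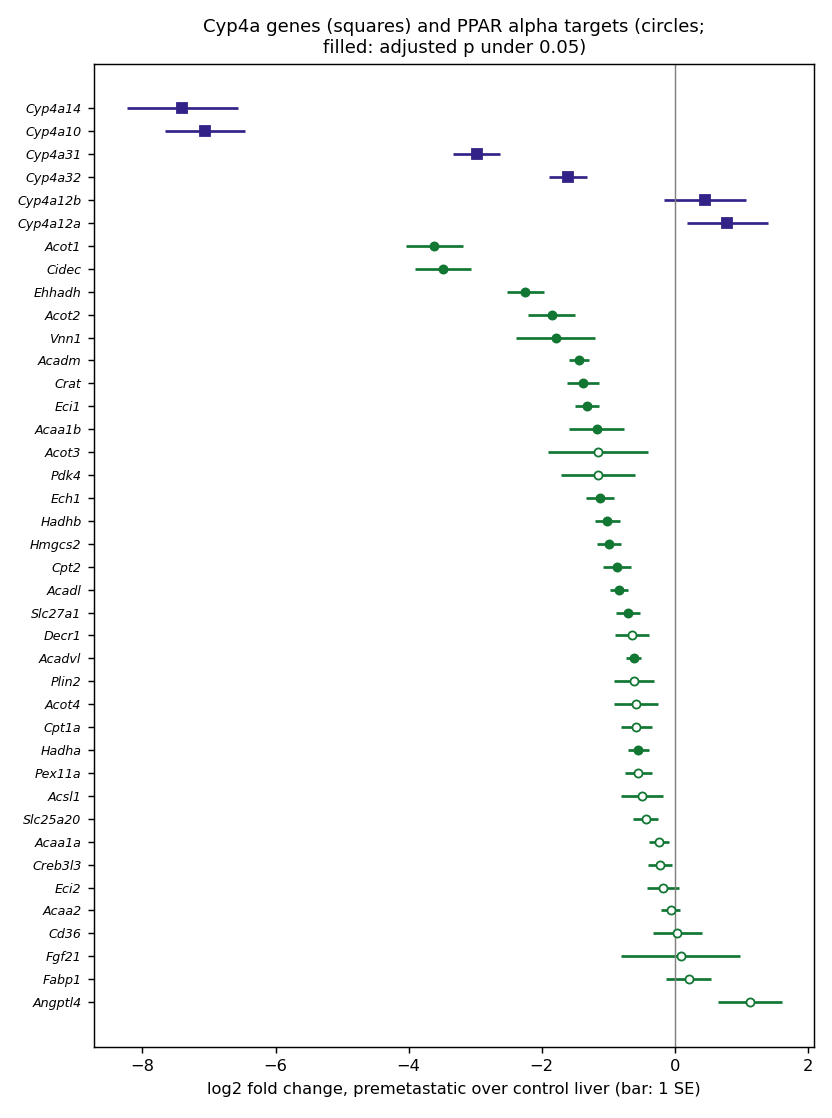
Log2 fold change of pre-metastatic over control liver, with 1 SE, for the 6 Cyp4a genes (squares) and the PPARα targets reported here (circles, filled where the edgeR adjusted p was under 0.05). The squares of Cyp4a14 and Cyp4a10, members of the family chosen by this contrast, lie near -7. Acot1 at -3.62 is the lowest of the targets.

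The receptor itself was not called. Ppara was 14.5 ± 4.09 RPKM in control liver and 19.6 ± 10.3 RPKM in pre-metastatic liver (log2 fold change 0.52, SE 0.35, edgeR adjusted p = 0.28). In the early livers alone the log2 fold change was -0.11 (edgeR adjusted p = 0.76). With the clock phase as a covariate it was 0.07 (edgeR adjusted p = 0.81). Within pre-metastatic liver Ppara was 11.6 ± 4.38 RPKM in the early and 29.5 ± 4.43 RPKM in the late livers. Of 19 nuclear receptors and partners, 4 were lower, 2 were higher and 13 were not called (median log2 fold change -0.01). Over all genes tested, 31.0% were called in either direction, so the list as a whole was near that share. Esrra, an orphan receptor of energy metabolism, fell by 0.84 on the log2 scale (SE 0.17, edgeR adjusted p = 0.0021). Hnf4a, a master regulator of hepatocyte genes, fell by 0.70 (SE 0.20, edgeR adjusted p = 0.015), a call that was lost without C5. Nr3c1, the glucocorticoid receptor, rose by 0.56 (SE 0.14, edgeR adjusted p = 0.0088), and Ncoa2, a coactivator, by 0.35 (SE 0.08, edgeR adjusted p = 0.0056). The number lower was 2 under 4 alternatives, among them the fits without C1, M1 or M8.

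Of 22 genes of the later omega-oxidation steps and of electron supply to P450 enzymes, 7 were lower, 4 were higher and 11 were not called (median log2 fold change -0.33). Aldh3a2, the fatty aldehyde dehydrogenase, fell from 34.6 ± 14.5 to 13.1 ± 9.51 RPKM (log2 fold change -1.35, SE 0.43, edgeR adjusted p = 0.026), a call that was lost without C7. Crat, a carnitine acetyltransferase, fell by 1.38 on the log2 scale (SE 0.23, edgeR adjusted p = 0.00058). Adh4, an alcohol dehydrogenase that oxidizes omega-hydroxy fatty acids, rose by 1.71 (SE 0.32, edgeR adjusted p = 0.0010). Por, the reductase that supplies electrons to all microsomal P450 enzymes, was 212 ± 70.3 and 90.4 ± 73.2 RPKM (log2 fold change -1.13, edgeR adjusted p = 0.089), and was called lower in the early livers alone (-2.33, edgeR adjusted p = 0.0014) and with the clock phase as a covariate (-1.88, edgeR adjusted p = 0.0059). The number higher was 2 under 8 alternatives, where Adh1 and Adh5 were not called: in the early livers, with the clock phase as covariate, without TMM, without the filter, and without C4, C6, M10 or M12.

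The Cyp4 genes other than the members did not move as a group. Of 14 listed genes 9 were tested, 3 were higher, 1 was lower and 5 were not called. Cyp4f14, a leukotriene hydroxylase of liver, was 41.6 to 63.2 RPKM in control liver and higher, at 67.2 to 147 RPKM, in pre-metastatic liver (log2 fold change 1.15, SE 0.17, edgeR adjusted p = 0.00022). Cyp4f16 rose by 1.46 (SE 0.26, edgeR adjusted p = 0.00083), from a mean of 0.962 to 2.44 RPKM. Cyp4f18, which hydroxylates leukotriene B4 in neutrophils, rose by 2.40 (SE 0.46, edgeR adjusted p = 0.0013). It was low in both groups, with means of 0.028 and 0.14 RPKM and at most 32 counts in any liver. Cyp4f15 fell by 0.75 (SE 0.16, edgeR adjusted p = 0.0029). Cyp4a29 and Cyp4a30b, the other Cyp4a genes of the table, had at most 6 and 11 counts in any liver and were not tested. The number lower was 2 in the early livers and without M2, M5 or M10.

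Since Cyp4a12a is a male form, genes with a known sex bias in liver were set beside it. Of 13 male-biased genes, 4 were higher, 0 lower and 9 not called by edgeR (median log2 fold change 0.38). Of 11 tested female-biased genes, 2 were lower, 0 higher and 9 not called (median -0.12), beside 13.3% lower over all genes. At an unadjusted p under 0.05, edgeR gave 0 male-biased genes lower and 1 female-biased gene higher, and DESeq2 gave 0 of either after adjustment. Hsd3b5, a steroid reductase found in male liver, was 0.513 to 10.7 RPKM in control and 3.68 to 279.6 RPKM in pre-metastatic liver (log2 fold change 5.57, SE 1.02, edgeR adjusted p = 0.00099). Slco1a1, an organic anion transporter, rose by 1.74 (SE 0.36, edgeR adjusted p = 0.0023), C6, a complement component, by 1.81 (SE 0.36, edgeR adjusted p = 0.0017) and Susd4 by 1.40 (SE 0.27, edgeR adjusted p = 0.0013).

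Cyp17a1, the steroid 17-hydroxylase, fell from 29.4 ± 21.1 to 1.55 ± 1.76 RPKM (log2 fold change -4.13, SE 0.62, edgeR adjusted p = 0.00024). Trim24, a transcriptional corepressor, fell by 0.88 (SE 0.32, edgeR adjusted p = 0.049), a call that was lost under 12 alternatives, among them each of the 5 fits without a control liver. Without C7, 2 female-biased genes were called higher, and 1 was in the early livers.

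Of 9 genes of growth hormone signalling, 4 were higher, 0 lower and 5 not called by edgeR (median log2 fold change 0.54), with 0 lower also at an unadjusted p under 0.05 and by DESeq2. Ghr, the growth hormone receptor, rose by 1.13 (SE 0.25, edgeR adjusted p = 0.0032) and Stat5a, its signal transducer, by 0.89 (SE 0.21, edgeR adjusted p = 0.0058). Stat5b rose by 0.54 (SE 0.15, edgeR adjusted p = 0.011) and the kinase Jak2 by 0.49 (SE 0.14, edgeR adjusted p = 0.015), both of which were not called without TMM scaling.

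The acute phase, the liver's secretory response to inflammation, was called in most of its genes. Of 19, 16 were higher, 0 lower and 3 not called by edgeR (median log2 fold change 1.34), with 0 lower also at an unadjusted p under 0.05 and by DESeq2. Saa1, serum amyloid A, was 34.2 to 1273 RPKM in control and 1544 to 10619 RPKM in pre-metastatic liver (log2 fold change 3.90, SE 0.87, edgeR adjusted p = 0.0035). Orm2, an orosomucoid, rose by 5.28 (SE 0.67, edgeR adjusted p = 8.1e-05), Saa2 by 5.28 (SE 1.06, edgeR adjusted p = 0.0018) and Saa3 by 2.89 (SE 0.40, edgeR adjusted p = 0.00015). Of 16 clock genes, 0 were called by edgeR and 0 by DESeq2, with 1 higher at an unadjusted p under 0.05, and 4 were called higher by edgeR without C7, the only control liver of the late phase.

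Primary tumors, which were not used to choose the family, had 21.7 to 357 RPKM over the 6 hepatocyte markers. Of the 6 members, 5 passed the count filter and were called lower in tumor than in pre-metastatic liver, as were 40.5% of 17827 genes. They passed it through the livers, where they were high, and at most 2 tumors reached 10 counts of any, so the call followed from the filter and the values are given as a description. The pooled counts of Cyp4a12a were 101428 in the pre-metastatic livers and 77 in the tumors, and those of Cyp4a32 were 14566 and 12. The ratio of pooled count rates, liver over tumor, was 1332 for Cyp4a12a (exact 95% interval 1066 to 1688) and 1228 for Cyp4a32 (703 to 2376), intervals that cover counting error only.

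Cyp4a31 had 0 to 2 counts in every tumor and 4 in all. Its ratio was 172 (exact 95% interval 66.8 to 633). Cyp4a12b, which failed the filter because M6 had 4 counts, had 2952 counts in the livers and 2 in the tumors, a ratio of 1493 (exact 95% interval 413 to 12331). Both intervals cover counting error only, not the spread between mice.

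Cyp4a10 and Cyp4a14, whose pre-metastatic liver level was itself low, had smaller ratios of liver to tumor, at 59.9 (exact 95% interval 49.1 to 73.9) and 34.8 (30.3 to 40.2) over pooled counts. These intervals cover counting error only, not the spread between mice. The tumor counts of both genes came almost wholly from M10 and M12. Cyp4a10 had 57 counts in M10, 42 in M12 and 0 in the other 7 tumors, and Cyp4a14 had 106 in M10, 99 in M12, 1 in M7 and 0 in the other 6. These 2 tumors were also left out, an alternative chosen after the values were seen, while all 9 livers, those of M10 and M12 included, stayed pooled. Cyp4a10 was then at least 1499.7-fold higher in the pooled livers, against a floor of 3 counts over the 7 tumors, all at 0. The ratio of Cyp4a14, from a single tumor count, was 5438 (exact 95% interval 976 to 214810, counting error only). In Cyp4a14 alone the tissues overlapped, since the M8 liver at 0.296 RPKM was below the tumors of M10 and M12 at 0.452 and 0.550 RPKM.

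The tumors of M10 and M12 also had the most albumin, at 86.4 and 172.8 RPKM against 2.97 to 15.01 RPKM in the other 7. Relative to 1000 RPKM of albumin, Cyp4a10 was 4.46 and 2.14 in these tumors and 0.330 and 0.0959 in the livers of the same mice. Cyp4a14 was 5.23 and 3.18 in the tumors and 0.146 and 0.0286 in the livers, while Cyp4a12a was 2.97 and 0.922 in the tumors and 3.41 and 0.762 in the livers. Per albumin, then, Cyp4a10 and Cyp4a14 were above the mouse's own liver in both tumors, and Cyp4a12a was close to it. Both sets of ratios rest on few tumor counts, and the part of liver RNA in them was not tested.

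Within the 9 pre-metastatic livers, Cyp4a10 varied with Cyp4a14, and Cyp4a12a with Cyp4a12b. All 15 pairs had a positive Spearman rho, and 8 passed an exact permutation test (two-sided, adjusted p under 0.05 over the 15 pairs). Cyp4a10 and Cyp4a14 were correlated at rho = 0.90 (Pearson r = 0.91, exact permutation, adjusted p = 0.015 for rho and 0.0040 for r), and r was 0.92 without M7 and M10, the mice farthest from the median. Without M6 this pair no longer passed (rho = 0.86, exact permutation, adjusted p = 0.054). Cyp4a12a and Cyp4a12b were correlated at rho = 0.95 (r = 0.90, exact permutation, adjusted p = 0.0053 and 0.00074), with r = 0.89 without M6 and M12.

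Across these pairs the relation did not pass. The rho of Cyp4a12a was 0.35 with Cyp4a10 (r = 0.52) and 0.33 with Cyp4a14 (r = 0.41), with exact permutation adjusted p values of 0.38 and 0.39 for rho. Cyp4a32 was correlated with members of both pairs, at rho = 0.88 with Cyp4a10 (r = 0.88, exact permutation, adjusted p = 0.015) and 0.85 with Cyp4a12b (r = 0.91, exact permutation, adjusted p = 0.023). With ranks centred within the clock phase, 6 of the 15 pairs passed. The number was 4 without M4, M7 or M12, 2 without M5 or M10, and 1 without M6, so the count rests on single mice. Pairs of near-identical genes may share reads, and the part of shared reads in these correlations was not tested.

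**Figure D4:**
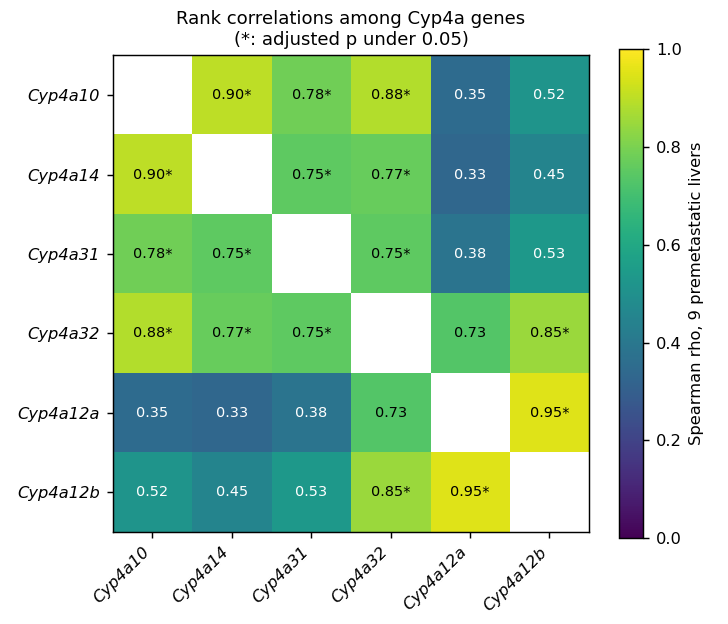
Spearman rho of log2(RPKM + 1) for each pair of Cyp4a genes over the 9 pre-metastatic livers, with an asterisk where the exact permutation adjusted p was under 0.05. The top left block of Cyp4a10, Cyp4a14, Cyp4a31 and Cyp4a32 holds values of 0.75 to 0.90, and Cyp4a12a and Cyp4a12b reach 0.95.

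The members were then set against 5 reference genes in the same 9 livers, 30 relations in all. Only the relations of Hsd3b5 with the Cyp4a12 pair passed. Its rho was 0.97 with Cyp4a12a (r = 0.98, exact permutation, adjusted p = 0.0025 for rho and 0.0031 for r) and 0.97 with Cyp4a12b (r = 0.92, exact permutation, adjusted p = 0.0025 and 0.0031). Without M6 and M12, r was 0.92 and 0.85. With ranks centred within the clock phase, rho was 0.97 for both, with exact permutation adjusted p values of 0.057 and 0.031.

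M6 had the lowest Hsd3b5 of the pre-metastatic livers, at 3.68 RPKM, and the lowest Cyp4a12a, and M5 had the highest of both. Next above M6 came M12 with 36.2 and M1 with 50.4 RPKM of Hsd3b5, then M7 with 121, M8 with 155, M2 with 183, M10 with 193, M4 with 244 and M5 with 279.6. The control livers did not lie on the same line, since C1, C4, C5 and C7 had under 2 RPKM of Hsd3b5 beside 32.9 to 58.5 RPKM of Cyp4a12a. Ppara, Cpt1a, Pdk4 and Saa1 passed with no member. The rho of Saa1 with Cyp4a10 was -0.47 (r = -0.43, exact permutation, adjusted p = 0.53 for rho), and it was -0.90 without M7, where it passed.

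**Figure D5:**
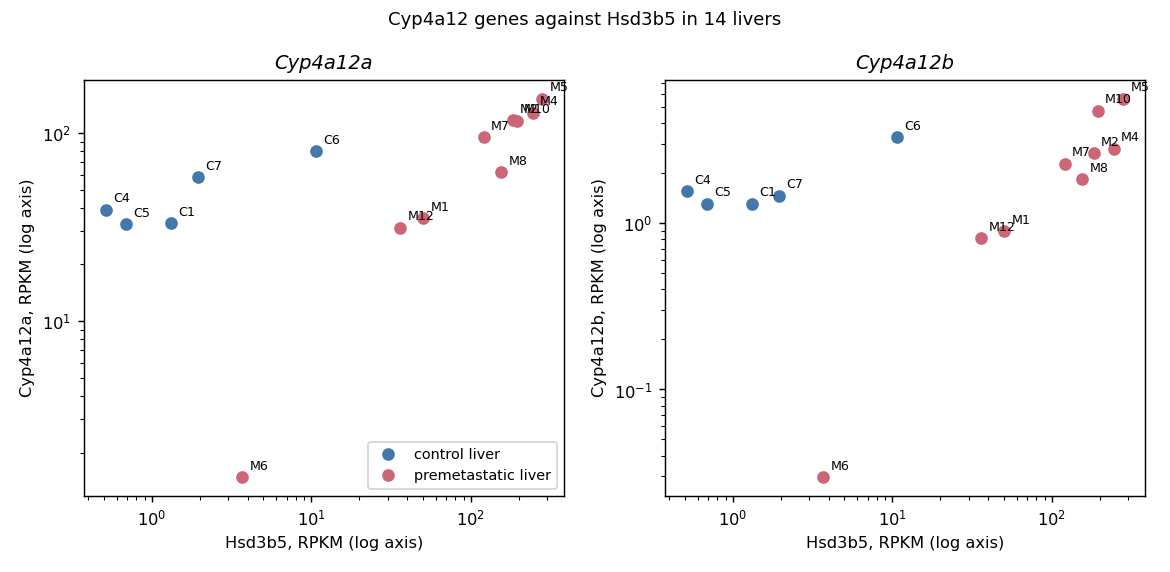
RPKM of Cyp4a12a (left) and Cyp4a12b (right) against RPKM of Hsd3b5 in the 14 livers, both axes logarithmic, with 1 labelled point per mouse. The 9 pre-metastatic livers rise together from M6 to M5, and the 5 control livers lie apart with Hsd3b5 at 0.513 to 10.7 RPKM.

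The genes most like each member over the 9 pre-metastatic livers, by Pearson r of log2(RPKM + 1) among 10893 genes, are given as a description. For Cyp4a10 they were Stk19 (0.96), Cyp4a31 (0.94), Taf1a (0.93), Slc6a13 (0.93) and Snord14c (0.92). For Cyp4a14 they were Taf1a (0.93), Tmed4 (0.92), Cyp4a31 (0.91), Cyp4a10 (0.91) and Mrgbp (0.90). Cyp4a31 had Cyp4a10, Taf1a (0.94), Wdr55 (0.93), Cyp4a14 and Nudc (0.91). Cyp4a32 had D8Ertd738e (0.97), Igbp1 (0.96), Acadvl (0.96), Emc4 (0.96) and Urod (0.95), of which Acadvl is the mitochondrial dehydrogenase of very long fatty acids.

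Cyp4a12a was most like Igsf5 (0.99), Bcs1l (0.98), Pepd (0.98), Hsd3b5 (0.98) and Fam213b (0.98). Cyp4a12b was most like H2-Ke6 (0.99), Jmjd4 (0.99), 0610011F06Rik (0.98), Tmem208 (0.98) and Mau2 (0.97). M6 was lowest for both Cyp4a12 genes, far below the other livers at 1.48 RPKM of Cyp4a12a, and 1 such liver can carry an r. Apart from that of Hsd3b5 with Cyp4a12a, these r values were not recomputed without M6. Taf1a, a subunit of the RNA polymerase I selectivity factor, was among the 5 genes of Cyp4a10, Cyp4a14 and Cyp4a31 alike, and the Cyp4a12 pair had no gene in common among its 5 and 5.

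Within 200 kb of the cluster, or inside it, lie 7 protein-coding genes other than the 6 members, of which 3 were tested. Cyp4b1, next to Cyp4a32, was 5.41 ± 1.39 and 4.14 ± 2.94 RPKM (log2 fold change -0.34, edgeR adjusted p = 0.61), and Efcab14 was 3.61 ± 0.202 and 3.61 ± 0.346 RPKM (edgeR adjusted p = 0.41). Atpaf1, an assembly factor of the ATP synthase, fell by 0.47 (SE 0.10, edgeR adjusted p = 0.0030). Cyp4x1, Cyp4a29, Cyp4a30b and Tex38 had at most 11 counts in any liver and were not tested. Inside the cluster, Cyp4a12a and Cyp4a12b lie on one side of Cyp4a14 and Cyp4a10, with Cyp4a30b between Cyp4a12b and Cyp4a14.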

How the data were processed

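RNA-seq was done by the authors on poly(A) RNA of 23 libraries (NEBNext Ultra). The authors deposited, for each gene and library, the raw count, without normalization, and the RPKM, the count divided by gene length and by the library's total count. Recomputing RPKM from the deposited counts gave values within a relative difference of 1.75e-06. The submitters' processing notes name HISAT, HISAT2, HTSeq 0.6.0 and mm10. All 46 columns were matched to samples by mouse number and tissue, and no library was a copy of another. A symbol on 2 lines (2 symbols) was summed. Total counts of 44587556 to 79773163 leave counting error of note where a gene has few counts, as in the tumors, for Cyp4a31 in pre-metastatic liver (28 to 198 counts), for Cyp4a14 in M8 (44) and for Cyp4a12b in M6 (4). For a ratio, a group at 0 counts was set to 3, and a group with 1 or more counts was given its ratio and counting interval.

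Livers, and tumors against pre-metastatic livers, were compared with edgeR 4.0.16 (R 4.3.3, TMM, quasi-likelihood test, two-sided, Benjamini-Hochberg) after keeping genes that reached 10 counts in 5 or more livers, or in 9 or more of the 18 libraries. DESeq2 1.42.0, no TMM, no filter, the early clock phase, the clock phase as covariate, a mouse block, summed near-identical genes and leaving out each library were tried. The test was checked on simulated data. Correlations used log2(RPKM + 1) and exact permutations over 9 mice. Sequences were read from GENCODE vM21. Statistics and figures used Python 3.11.15, numpy 2.4.6, pandas 2.3.3, scipy 1.17.1 and matplotlib 3.10.9.

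Liver and tumor of a number come from the same mouse, per the labels. The correlation of their deviations from the group means over 17827 genes was 0.058 on average (-0.032 to 0.17), against -0.0074 for other mice.

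The members, lists and tests were chosen with earlier results of these data known. Named are all 6 members, the 5 genes most correlated with each, protein-coding neighbours within 200 kb, and from each list up to 4 genes with the largest absolute change at an adjusted p under 0.05, plus Ppara, Cpt1a, Pdk4, Saa1, Hsd3b5, Por and Ehhadh. A further gene of the rule is not reported here. Adh1, Adh5 and the mice singled out were chosen after their values were seen.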

Additional observations from a re-analysis of the deposited data

Results flagged for a closer look

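In 3 of 18 groups of values (6 genes in 3 tissues, on the log2(RPKM + 1) scale), the highest or lowest library lay farther from the others than Dixon's 95% limit allows, where chance gives about 1 in 20. For Cyp4a12b in the tumors, 8 of 9 were at 0, so any count would have been marked there, and that value is left out of such a comparison. Cyp4a12a in the pre-metastatic liver of M6 was 1.48 RPKM, far below the other 8 livers at 31.4 to 152 RPKM. Cyp4a12b in the control liver of C6 was 3.31 RPKM, above the other 4 at 1.31 to 1.56 RPKM, and C6 also had the highest Cyp4a12a of the control livers, at 79.9 RPKM. Cyp4a12b in the tumor of M10 was 0.0118 RPKM (2 counts), at or under 3 counts and the only tumor above 0.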

How the results depend on the processing

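In the liver comparison 5270 genes were called, and 4137 to 5986 under all alternatives. Without TMM scaling, 2377 calls were higher and 2796 lower, in place of 3009 and 2261. In the tumor comparison, 15022 genes were called, and 13502 to 20827 under all alternatives. Without TMM scaling, the median log2 fold change of all genes there was 1.27 in place of 0.09, and 76.6% of calls were higher in place of 51.9%, while the tested members stayed between -10.41 and -4.95. With the mouse as a block, the paired tumor fit called 14929 genes, with -8.07 for Cyp4a10 and -7.48 for Cyp4a14. The members' log2 fold changes kept their direction in both comparisons under every alternative run. That is a description, since the liver contrast chose the family and the tumor calls followed from the filter. In the livers Cyp4a12a and Cyp4a12b were at 0.79 and 0.45, each with an SE of 0.61, so their sign says little. Summing the near-identical Cyp4a10, Cyp4a31 and Cyp4a32 moved their liver value to -5.25.

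Among the 15 member pairs, leaving out each mouse gave 1 to 9 passing pairs. Of the 30 relations with reference genes, 2 to 3 passed when each mouse was left out, and 1 passed with ranks centred within the clock phase, where the smallest p that permutations can give is 0.00035 and the cause was not tested. Of single genes, pairs and lists, 38 values moved, 37 lost their call, 3 gained it and 0 reversed. Counts limit Cyp4a12b in the M6 liver (4 counts) and Cyp4a31 in pre-metastatic liver (28 to 198 counts). In the tumors they limit all members, with Cyp4a31, Cyp4a32 and Cyp4a12b at 0 to 4 counts also in M10 and M12.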
